A study of Mus musculus with 49 samples.

Results

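Among the 7 cultures of differentiating mouse embryonic stem cells that had received fluoxetine until day 13, cultures 5, 6 and 7 stood apart from cultures 1, 2, 4 and 8. They held more transcript of genes of embryonic skeletal muscle, of fibroblasts and mesenchyme, and of ventral interneurons of the spinal cord and hindbrain, and less of the Hoxb genes of caudal levels. These 7 libraries were taken by their culture numbers from 49 in the series. The 2 sets were chosen by the expression values themselves, in which the grouping was seen, and no label stands behind it, so every difference between the 3 and the 4 cultures is a description without a test.

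The cells were of the mouse embryonic stem cell line ES-D3. They went through the neural embryonic stem cell test, which drives such cells toward neural fates to look for developmental neurotoxicity. Embryoid bodies formed until day 3, and fluoxetine at 2 µM or venlafaxine at 90 µM was then present from day 3 to day 7 or day 13. Controls without drug were taken on days 0, 7 and 13 and drug-exposed cultures on days 7 and 13, which makes 7 groups of 7 libraries. The labels give 8 samples per condition and name neither solvent, culture batch nor whether cultures of a group were separate differentiations, so p-values measure only the spread between these samples. Fluoxetine blocks the serotonin transporter, and venlafaxine blocks the transporters of serotonin and noradrenaline.

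Fluoxetine cultures on day 13 were sequenced to 16953921 to 26330172 counts in the 3 and 15217533 to 27225589 in the 4. Levels are given as counts scaled to the library total (CPM), which compare 1 gene between cultures and not genes with each other. Neuronal genes were abundant throughout, with Tubb3, a neuronal tubulin gene, at 972 to 1050 CPM in the 3 and 935 to 1120 CPM in the 4. Of the 25 general neuron genes only 4 were higher in the 3, with a median log2 difference of -0.12. In 6 of the 25 the 3 lay below the 4 without overlap, against 6.89% of all genes tested. None of these 6 reached the 1.5-fold difference asked for next. In 10 of the 25 the 3 lay below every control, a count for which no share over all genes was computed. In bulk RNA, more cells of a type and more RNA per cell cannot be told apart.

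A gene was called apart when its CPM in cultures 5, 6 and 7 did not overlap with that in cultures 1, 2, 4 and 8 and differed at least 1.5-fold. Of 16169 genes that passed the count filter, 448 (2.77%) were apart, 270 higher (1.67%) and 178 lower (1.1%) in the 3. Over all genes the median log2 difference was 0.00056. Without a fold limit, 1890 genes (11.7%) did not overlap. The second principal component of the 21 day 13 libraries, which held 13.7% of the variance, put cultures 5, 6 and 7 at 19.09 to 38.49. The other 4 lay between -10.74 and 9.56, controls between -18.1 and -3.88, and venlafaxine cultures between -12.3 and 11.41.

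Skeletal muscle forms when factors of the MyoD family, among them myogenin (Myog), switch on genes of the contractile filament in mononuclear myoblasts that then fuse. Embryonic fibres use their own isoforms, such as the embryonic heavy chain Myh3 and the cardiac actin Actc1, before adult isoforms replace them. Many promoters of these genes carry E-boxes, the sites of MyoD family factors, CArG boxes, the sites of serum response factor, and A/T-rich MEF2 sites. The next lines give the 250 bases before the RefSeq start (GRCm38.p6) of 4 genes from the top of the difference, shown because they were higher together in cultures 5, 6 and 7. Capitals mark the E-box CANNTG, the CArG box and the MEF2 core (TA, 4 bases that are each A or T, then TA), all of which read alike on both strands.
Myog: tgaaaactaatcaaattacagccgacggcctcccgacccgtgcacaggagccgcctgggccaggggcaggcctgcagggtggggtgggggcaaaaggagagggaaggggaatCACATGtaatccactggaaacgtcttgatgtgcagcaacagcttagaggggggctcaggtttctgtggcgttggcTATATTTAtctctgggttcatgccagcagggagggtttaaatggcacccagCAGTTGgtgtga
Actc1: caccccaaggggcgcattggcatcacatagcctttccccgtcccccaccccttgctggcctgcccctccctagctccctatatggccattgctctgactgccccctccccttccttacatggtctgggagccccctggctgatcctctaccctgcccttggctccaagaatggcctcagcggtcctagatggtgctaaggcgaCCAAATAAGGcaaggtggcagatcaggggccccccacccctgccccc
Acta1: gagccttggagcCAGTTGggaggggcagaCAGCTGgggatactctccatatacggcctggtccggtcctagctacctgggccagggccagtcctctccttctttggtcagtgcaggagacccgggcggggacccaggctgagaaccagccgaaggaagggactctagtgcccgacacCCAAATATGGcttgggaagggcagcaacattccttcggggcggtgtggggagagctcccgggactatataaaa
Myh3: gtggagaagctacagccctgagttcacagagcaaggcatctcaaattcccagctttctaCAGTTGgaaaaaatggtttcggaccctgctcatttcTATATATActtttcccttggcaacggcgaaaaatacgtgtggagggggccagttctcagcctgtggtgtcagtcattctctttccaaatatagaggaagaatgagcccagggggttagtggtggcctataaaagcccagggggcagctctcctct
The Myog stretch (chr1:134289754-134290003, plus strand) held 2 E-boxes, which began 138 and 12 bases before the start, and a MEF2 core 63 bases before it. That of Actc1 (chr2:114052876-114053125, minus strand) had 1 CArG box at 47 bases and no E-box. That of Acta1 (chr8:123894776-123895025, minus strand) held E-boxes at 238 and 221 bases and a CArG box at 73 bases. The Myh3 stretch (chr11:67078050-67078299, plus strand) had 1 E-box at 191 and a MEF2 core at 155 bases. None of the marked sites overlapped another. Of 27025 mouse promoters of that length, 66.0% held an E-box, 1.4% a CArG box and 8.73% a MEF2 core. A match describes the letters and shows no binding.

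Myh3 had the largest log2 difference of the named genes, 4.00 ± 0.437 (SE). It stood at 15.7, 18.8 and 14.8 CPM in cultures 5, 6 and 7. In cultures 1, 2, 4 and 8 it stood at 0.975, 0.255, 2.25 and 0.512 CPM. The lowest of the 3 was thus above the highest of the 4, and above the controls, which ran from 0.261 over a median of 1.57 to 6.68 CPM. Control 6 gave that top value, and the next highest control held 1.97 CPM. Venlafaxine cultures held 0.252 to 2.36 CPM.

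Actc1, the cardiac alpha-actin that embryonic skeletal muscle also makes, followed closely. Its levels were 17.1, 18.5 and 15.3 CPM in cultures 5, 6 and 7 against 1.42, 0.102, 2.62 and 0.577 CPM in cultures 1, 2, 4 and 8 (log2 difference 3.79 ± 0.52). These values rest on 307, 325 and 393 counts against 38, 2, 56 and 9. Controls ran from 0 to 3.7 CPM, again highest in control 6, and venlafaxine cultures from 0 to 2.1 CPM. The skeletal alpha-actin Acta1 (chromosome 8) stood at 5.61, 6.33 and 6.53 CPM in the 3 and at 0.825, 0.662, 0.983 and 0.641 CPM in the 4. Actins are near-identical paralogs, and how reads matching several genes were counted is not given, so the split of reads among them is uncertain.

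Myog, the factor that commits myoblasts to differentiate, was measured on few reads. Cultures 5, 6 and 7 held 35, 69 and 46 counts (1.94, 3.93 and 1.79 CPM), and cultures 1, 2, 4 and 8 held 7, 0, 15 and 0. A count of 0 allows up to 3 counts, that is 0.153 CPM in culture 2 and 0.192 CPM in culture 8. The fitted log2 difference of 3.27 ± 0.718 depends on the prior count because of those zeros. Control 6, with 21 counts, was the highest library outside fluoxetine. Myod1, an earlier factor of the family, did not pass the count filter, with 0.556, 1.14 and 0.466 CPM in the 3 and 0.0468 to 0.112 CPM in the 4. Myf5 was at 0.0556 CPM or less in all 7.

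A list of 30 genes for the skeletal filament and calcium store, written after these values were seen, had 25 members past the filter. All 25 had a log2 difference above 0, with a median of 2.01, and 20 were apart, against 1.67% of all genes tested. The filter was grouped by the same sets of cultures, so a gene could pass on cultures 5, 6 and 7 alone. The shared sign of the 25 may partly come from that. In the comparison of all 7 fluoxetine cultures with controls, 20 members passed. Myh1, Myh2, Myh4, Tnni2 and Ckm did not pass here. Of these, Myh2 lay below every control in all 3 cultures, and Tnni2 lay above every control. Each of the 20 genes apart stood in cultures 5, 6 and 7 above every control and every venlafaxine culture. They were chosen for being high in these same 3 cultures, and the share of all genes that do so was not computed. Troponins were among them: Tnnt2 (3.39 ± 0.287) at 2.11, 2.68 and 2.1 CPM against 0.187, 0.153, 0.328 and 0.192 CPM. The slow troponin Tnni1 stood 2.71 ± 0.402 higher. Ttn, coding for the giant spring protein titin (2.43 ± 0.528), Casq2, a calcium store protein gene (2.15 ± 0.321), and Des, an intermediate filament gene of muscle (2.11 ± 0.277), were also among the 10 genes with the largest difference. The fast light chain Mylpf held 10.4, 9.8 and 11.7 CPM against 3.52, 1.83, 2.53 and 3.2 CPM.

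Summed over the list, the muscle genes stood at 119, 123 and 113 CPM in cultures 5, 6 and 7. The sums in cultures 1, 2, 4 and 8 were 35.5, 25.5, 49.8 and 30.9 CPM. Controls ran from 30.7 over 38.7 to 64.4 CPM, with control 6 highest, and venlafaxine cultures from 27.3 over 33.3 to 47.9 CPM.

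Not all muscle genes took part. Casq1 and Actn3 differed little from the day 13 controls. Their log2 differences were -0.06 and -0.12 with cultures 1, 2, 4 and 8, and 0.05 and 0.09 with cultures 5, 6 and 7. A list of 16 muscle regulators and genes of the nerve-muscle junction, also written after values were seen, had 8 members past the filter, with a median of 0.161. Of these 8, Myog and Chrna1, an acetylcholine receptor subunit gene (0.5, 0.684 and 0.661 against 0.328, 0, 0 and 0.128 CPM), were apart as higher. The share over all genes tested was 1.67%. The sums of that list overlapped, at 24.6 to 29.8 CPM in the 3 and 18.4 to 28.4 CPM in the 4. Myh8, the perinatal heavy chain, was highest in culture 4 at 12.4 CPM and stood at 3.72, 5.7 and 3.34 CPM in the 3, within the control range of 1.31 to 11.9 CPM. Pax3 and Pax7, markers of muscle precursors and of dorsal neural tube, overlapped between the sets. Of 12 cardiac markers, written as a list after values were seen, 5 passed the filter and none was apart as higher. Skeletal and cardiac genes were parted into lists with the values known, so this count alone does not tell heart from skeletal muscle. The mixed list of heart and skeletal muscle had 18 of 27 genes apart as higher and 1 as lower, against 1.67% and 1.1% of all genes tested. Myh6, the atrial heavy chain, stood at 0.667 to 1.14 CPM in the 3 and 0.637 to 0.897 CPM in the 4. Nkx2-5, the early heart factor, was lower, at 0.278, 0.114 and 0.389 against 0.487, 0.611, 0.515 and 0.833 CPM. The smooth muscle genes Acta2 (19.3 to 34.7 CPM in the 3, 21.3 to 38.7 CPM in the 4), Tagln, Cnn1 and Myh11 overlapped as well. The plot of 6 muscle genes gives these values by culture.

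**Figure D1:**
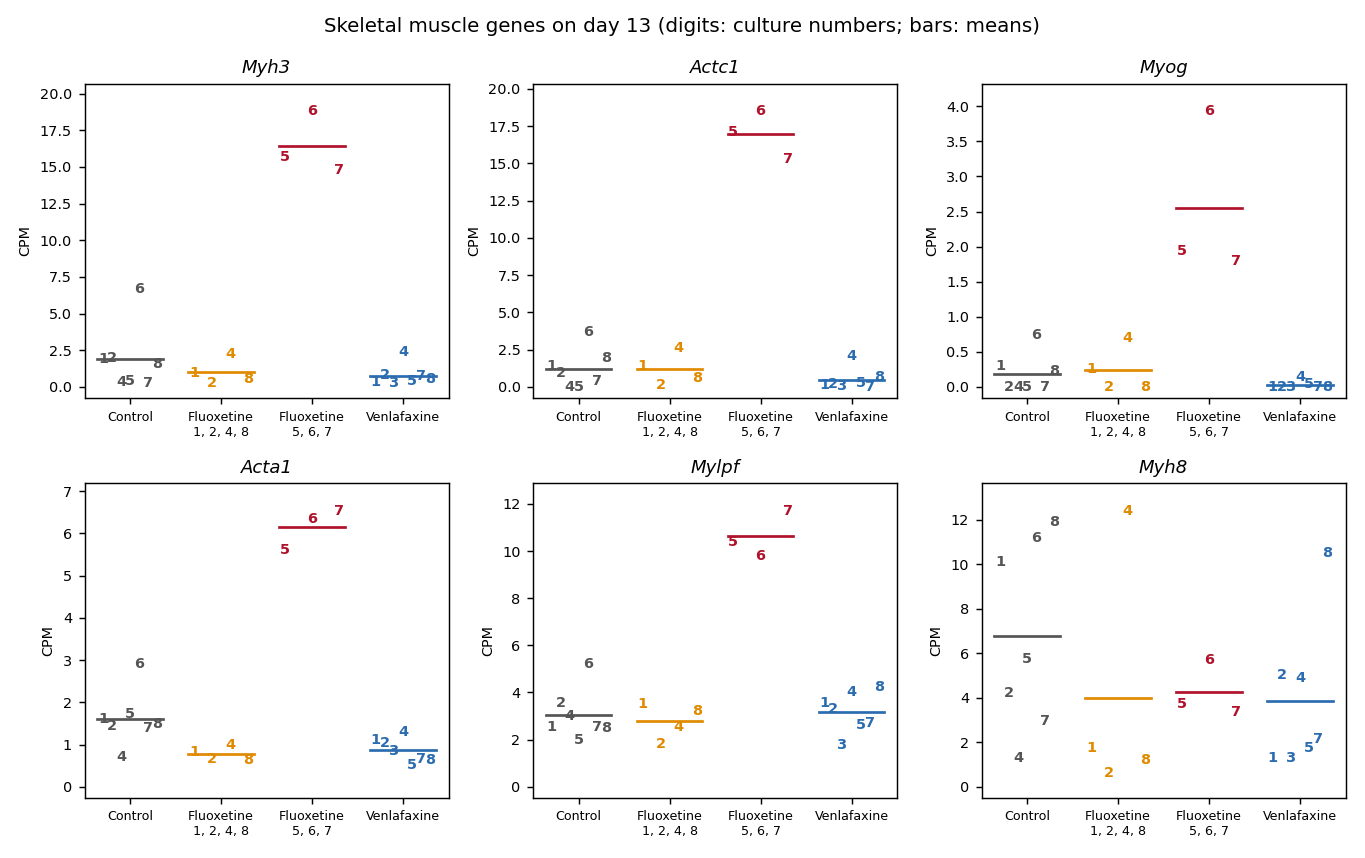
CPM of 6 skeletal muscle genes (vertical axes, from 0) in the day 13 controls, the 2 sets of fluoxetine cultures and the venlafaxine cultures. Digits are culture numbers and bars are means. Cultures 5, 6 and 7 stand above all others for Myh3, Actc1, Myog, Acta1 and Mylpf, whereas Myh8 overlaps and is highest in fluoxetine culture 4.

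Fibroblasts of the meninges and around vessels come from mesenchyme and neural crest. They make fibrillar collagens and retinoic acid, and Foxc1 is needed for the meninges to form. A list of 24 such genes, also written after values were seen, passed the filter in full. All 24 had a log2 difference above 0, with a median of 1.42, and 23 were apart, against 1.67% of all genes tested. As the list was made from these values, its counts are a description and do not name the cell type. The gene not apart was Aldh1a2, which makes retinoic acid, at 22.8, 12.7 and 8.36 CPM against 5.21, 6.16, 6.51 and 10.1 CPM.

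Among forkhead factors, Foxc1 stood at 15.2, 9.98 and 10.4 CPM in cultures 5, 6 and 7 and at 3.71, 4.12, 3.42 and 6.47 CPM in cultures 1, 2, 4 and 8 (1.46 ± 0.239). Its relatives Foxc2 (1.87 ± 0.259), Foxd1 (1.51 ± 0.221) and Foxf2 (1.43 ± 0.201) went with it. Of the matrix genes, Col1a1, a chain of collagen I, held 159, 105 and 92.6 CPM against 35.2, 50.8, 47.8 and 56.6 CPM. Col3a1 held 1010, 639 and 618 CPM against 315, 365, 359 and 431 CPM. Tgfbi, a secreted adhesion protein gene, stood at 24.1, 15.3 and 15.3 CPM against 5.29, 6.77, 4.59 and 6.73 CPM. Culture 5 was the highest of the 3 for each of these genes, while Myh3 and Actc1 were highest in culture 6.

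Controls varied widely in the same genes. The summed level of the list, to which Col3a1 gives the greater share, was 2120, 1350 and 1350 CPM in cultures 5, 6 and 7. It was 703, 793, 745 and 933 CPM in cultures 1, 2, 4 and 8. Controls ran from 368 over 854 to 1520 CPM, and control 6, again the highest, lay above fluoxetine cultures 6 and 7. For 13 of the 24 genes all 3 cultures exceeded every control, against 20 of 25 muscle filament genes. Both lists were written after values were seen, and the share of all genes above every control was not computed. The wider list of smooth muscle and mesenchyme had 9 of 18 genes apart as higher, against 1.67% of all genes tested. Among them were Pdgfrb, a pericyte receptor gene (0.78 ± 0.139), and Postn (0.79 ± 0.194). Endothelial genes did not go with them: of 12 tested, Emcn was apart as higher and Plvap as lower, against 1.67% and 1.1% of all genes tested. Cdh5, the endothelial cadherin gene, stood at 5.56 CPM in culture 5 and at 22.5 to 35.4 CPM in the other 6.

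In the ventral neural tube, progenitors that express Nkx6-1 and Irx3 give rise to V2 interneurons. Foxn4 acts in these progenitors, and Gata2, Gata3 and Tal1 mark the inhibitory V2b cells. A list of 13 V2 genes, written after values were seen, had all members above 0 (median 0.5). Of these, 5 were apart, against 1.67% of all genes tested. At any fold 11 did not overlap, against 776 genes (4.8%) higher without overlap among all tested. Venlafaxine cultures 5 and 7 against venlafaxine cultures 1, 2, 4 and 8 gave much the same for this list, with a median of 0.437 and 4 of 13 apart as higher, against 0.64% of all genes tested there. Controls of the same numbers gave a median of 0.00554 and none apart.

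Foxn4 stood at 10.6, 6.38 and 8.86 CPM in cultures 5, 6 and 7 and at 2.89, 3.31, 3.65 and 2.88 CPM in cultures 1, 2, 4 and 8 (1.45 ± 0.181). Lhx3, shared by V2 cells and motor neurons, held 22.7, 13.6 and 21 CPM against 8.55, 9.83, 6.23 and 7.11 CPM. Culture 6 was the lowest of the 3 for both. Vsx1 (1.51 ± 0.267) and Tal1 (0.60 ± 0.125) were also apart. Gata3 (0.55 ± 0.129) and Gata2 (0.50 ± 0.109) did not overlap and fell short of 1.5-fold.

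Nkx6-1 itself stood at 140, 117 and 143 CPM in cultures 5, 6 and 7 and at 114, 93.4, 87.4 and 105 CPM in cultures 1, 2, 4 and 8. The log2 difference of 0.43 ± 0.0898 is under 1.5-fold, and cultures 6 and 1 nearly met. All 7 fluoxetine cultures exceeded the controls, which ran from 57.6 over 69.5 to 82.8 CPM. The same held for Foxn4, Gata3 and Lhx4, whereas in no muscle filament or fibroblast gene did all of cultures 1, 2, 4 and 8 exceed every control. Venlafaxine cultures held 75.7 to 119 CPM of Nkx6-1, and venlafaxine culture 5 gave the top value.

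**Figure D2:**
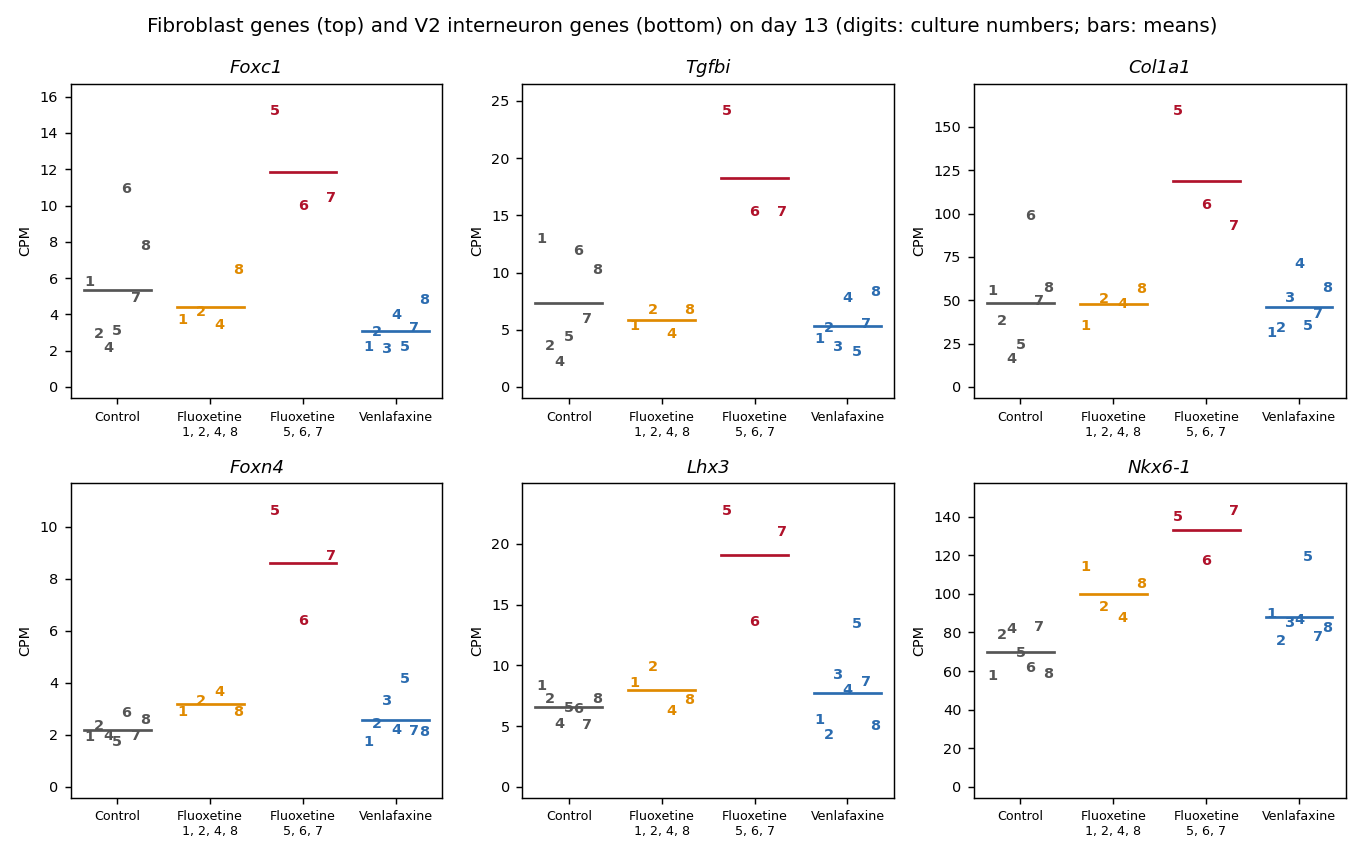
CPM of 3 fibroblast genes (top) and 3 V2 interneuron genes (bottom) by culture on day 13, with axes from 0. Digits are culture numbers and bars are means. Control 6 lies above fluoxetine cultures 6 and 7 for Foxc1, and all 7 fluoxetine cultures lie above the controls for Foxn4 and Nkx6-1.

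Other neural genes were higher in cultures 5, 6 and 7. The proneural factor genes Neurog1 (14.4, 8.72 and 14.8 against 5.17, 6.57, 6.13 and 8.52 CPM) and Neurog2 (31.2, 19.5 and 29.3 against 14.7, 17.3, 17.6 and 16.8 CPM) were apart. Corin, a gene of the floor plate region, stood at 33.3, 28.4 and 30.2 against 22.8, 15, 11.3 and 17 CPM. Crabp2, a carrier of retinoic acid, held 43.6, 20.2 and 38.5 against 12.2, 14, 15.5 and 17.4 CPM. Rarb, a receptor gene that retinoic acid induces, held 8.39, 5.36 and 5.56 against 3.37, 3.62, 3.7 and 3.4 CPM.

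Genes of serotonergic neurons were high in cultures 5 and 7 and also in culture 1, so the sets overlapped. Slc6a4 codes for the serotonin transporter, which fluoxetine blocks. It stood at 37.1, 23.1 and 44.5 CPM in the 3 and at 27.3, 16.1, 12.9 and 20 CPM in the 4. Fev, the factor that specifies these neurons, held 13.2, 9.46 and 15.2 against 10.9, 6.37, 5.85 and 6.92 CPM. None of 11 monoaminergic genes tested was apart. Gjb6, a connexin gene of astrocytes and also of meningeal fibroblasts, was the single astrocyte gene apart, at 2.67, 1.54 and 1.71 against 0.262, 0.56, 0.421 and 0.577 CPM.

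Hox genes mark position along the body axis, and those toward the 5′ end of a cluster are used at more caudal levels. Of 20 Hox genes tested, 10 had a log2 difference above 0, with a median of 0.0422. The 5 that were apart were all lower in cultures 5, 6 and 7, against 1.1% of all genes tested: Hoxb5, Hoxb6, Hoxb7, Hoxb8 and Hoxa7. The 4 Hoxb genes lie side by side on chromosome 11 of GRCm38, plus strand, from Hoxb8 at 96281905 to the end of Hoxb5 at 96306121. Neighbours on the 3′ side were not lower: Hoxb4 held 37.9, 27.5 and 36.3 CPM against 29.1, 27.9, 30.4 and 27.9 CPM. Hoxb9, on the other side, had a log2 difference of -1.37 ± 0.663 and overlapped.

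Hoxb8 stood at 5.33, 6.27 and 9.37 CPM in cultures 5, 6 and 7 and at 13.8, 11.9, 28.9 and 15.2 CPM in cultures 1, 2, 4 and 8 (-1.30 ± 0.346). Culture 4 was far above the other fluoxetine cultures and inside the control range of 20.7 over 28.9 to 40.9 CPM. Hoxb6 showed the same order, with 2.89, 3.71 and 4.7 CPM against 7.72, 6.37, 21.2 and 7.69 CPM. Hoxb7 (-1.47 ± 0.245) held 2.78, 3.48 and 4.43 against 9.37, 7.49, 14.5 and 8.78 CPM. For Hoxb6, Hoxb7 and Hoxb8, cultures 5, 6 and 7 and all of the other 4 except culture 4 lay below every control. For Hoxb5 all 7 did, with 3.14 to 4.2 CPM in the 3, 5.3 to 10.6 CPM in the 4 and 11.9 to 17.2 CPM in controls. Venlafaxine cultures spread from 6.9 to 45.7 CPM of Hoxb8, the lowest again being venlafaxine culture 5. That culture was thus like cultures 5, 6 and 7 in Hoxb8 and Nkx6-1, while its Actc1 stood at 0.284 CPM. An antisense transcript overlaps Hoxb5 and Hoxb6, and the strand setting of the counting is not given, so their counts are uncertain.

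**Figure D3:**
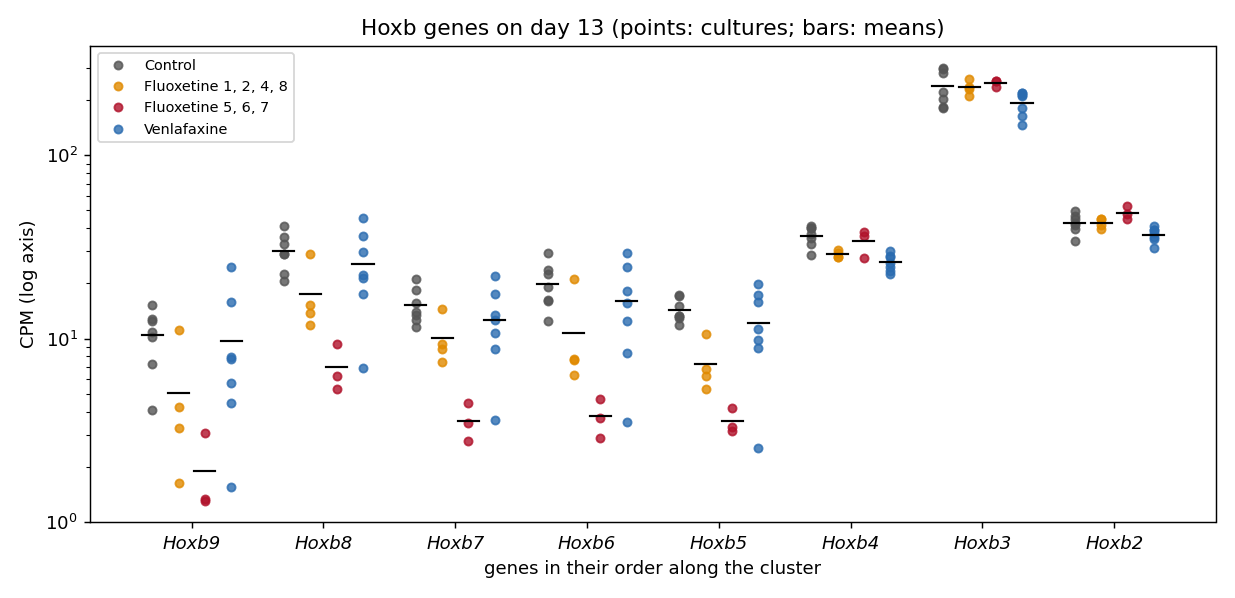
CPM (log axis) of Hoxb9 to Hoxb2 in their order along the cluster, for day 13 controls, both sets of fluoxetine cultures and venlafaxine cultures. Points are cultures and bars are means. Cultures 5, 6 and 7 and venlafaxine culture 5 lie lowest from Hoxb8 to Hoxb5, and from Hoxb4 to Hoxb2 both sets of fluoxetine cultures overlap.

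Other genes lower in cultures 5, 6 and 7 were of mixed kinds. Necab1, a calcium-binding protein gene of neurons, stood at 2.28, 2.45 and 2.41 CPM against 4.12, 6.98, 8.85 and 6.02 CPM, with controls at 7.31 to 17.5 CPM. Dmbx1, a homeobox gene of midbrain and spinal interneurons, held 0.5, 1.03 and 0.894 against 1.39, 1.88, 2.86 and 3.2 CPM. Slc17a6, the vesicular glutamate transporter gene of spinal and brainstem neurons, held 34.1, 34.3 and 38.6 against 42.3, 61.8, 67 and 45.5 CPM. Neurod2 (-0.74 ± 0.184) was lower, and the glutamate receptor gene Grin2b, at 64.2, 77.9 and 70 against 91.6, 124, 108 and 95.6 CPM, did not overlap.

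Of 21 pluripotency genes 20 were below 0 (median -0.88) and 4 were apart as lower, against 1.1% of all genes tested. In venlafaxine, cultures 5 and 7 against cultures 1, 2, 4 and 8 had 13 of the 21 apart as lower (median -0.764), against 2.43% of all genes tested there. Controls of the same numbers had a median of -0.213 and none apart. Nr5a2 (-1.15 ± 0.164) and the noncoding RNA Lncenc1 (-1.14 ± 0.225), both known from embryonic stem cells, were among the 10 genes with the lowest difference. Pou5f1, which codes for Oct4, overlapped, at 3.39, 15.6 and 11.3 against 30, 11.9, 16.7 and 31 CPM, and culture 5 held the least. The others of these 10 were Usp18, Tex14 and Btn1a1. Usp18, induced by interferon, stood at 1, 1.37 and 0.7 against 3.6, 1.48, 6.08 and 1.92 CPM, so cultures 4 and 1 carried most of that difference.

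Lists for the cell cycle, GABAergic neurons, neuropeptides, hypoxia and glycolysis, sterol synthesis and the lysosome had no gene apart, and their medians ran from -0.0534 to 0.109. The plot of gene lists gives the medians and counts of all lists with 5 or more tested members.

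**Figure D4:**
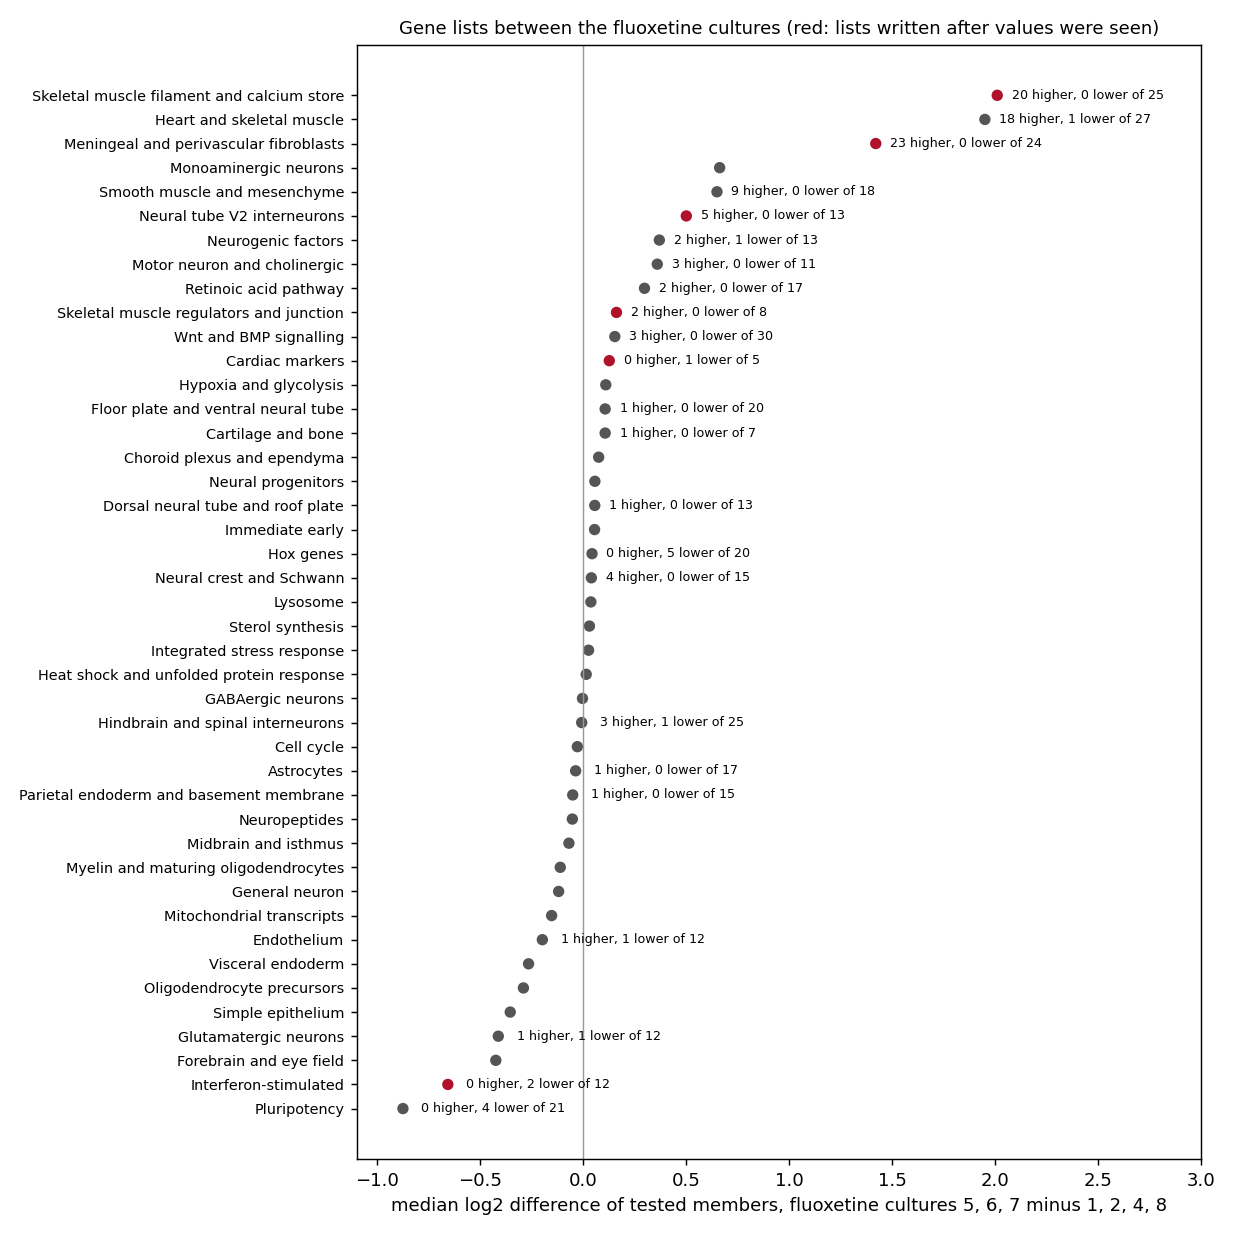
Median log2 difference between cultures 5, 6 and 7 and cultures 1, 2, 4 and 8 (horizontal axis) for gene lists (rows), with the number of tested members apart in each direction. Red points are lists written after values were seen. The count filter was grouped by the same sets, so genes could pass on cultures 5, 6 and 7 alone. The filament list (2.01) and the mixed list of heart and skeletal muscle (1.95) have the highest medians, the fibroblast list follows at 1.42, and the muscle regulators (0.161) and cardiac markers (0.126) lie among the many lists near 0.

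The same culture numbers in groups that did not choose the grouping were tested with edgeR. In day 13 controls, numbers 5, 6 and 7 against 1, 2, 4 and 8 gave no gene of 16364 at an adjusted p under 0.05 (269 at an unadjusted p under 0.05, 1 by DESeq2), and 63 genes (0.385%) were apart. Myh3 was at 0.414 and 0.261 CPM in controls 5 and 7, and at 6.68 CPM in control 6, the highest control. In venlafaxine, which lacks a number 6, cultures 5 and 7 against the same 4 numbers gave no gene of 16551 (1950 unadjusted, 24 by DESeq2), with 508 (3.07%) apart, where 2 cultures against 4 overlap less easily than 3 against 4. On day 7, the same numbers as far as present had 66 (0.417%, control), 195 (1.24%, fluoxetine) and 106 (0.696%, venlafaxine) genes apart. Number labels do not tie cultures of different groups or days together in the sources used here.

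Day 7 levels show which genes were already present. Actc1 was at 3.21 to 6.09 CPM in day 7 fluoxetine cultures and 2.74 to 4.55 CPM in day 7 controls, with no culture near the levels of day 13 cultures 5, 6 and 7. Myh3 was below 1 CPM in both. Hoxb8 held 18.1 to 47.5 CPM under fluoxetine and 12.2 to 45.1 CPM in controls on day 7. Nkx6-1 held 58.9 to 80.1 and 45.5 to 90.7 CPM.

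Across the 14 control and venlafaxine libraries of day 13, the genes most like Hoxb8 by Pearson correlation of log2 CPM were its neighbours Hoxb7 (0.98), Hoxb6 (0.979), Hoxb5 (0.962) and Hoxb9 (0.949), then Cdkn2aipnl (0.911). Among the 5 genes most like Nkx6-1 were Mid1ip1 (0.99), Vit (0.957), Sfrp1 (0.953) and Gdpd2 (0.947). None of these was apart between the fluoxetine cultures, against 2.77% of all genes tested. Those most like Actc1 were Egflam (0.908), Col5a2 (0.906), Synpo (0.902), Heyl (0.884) and Adgra2 (0.883). All 5 were apart as higher, against 1.67% of all genes tested, but in the fluoxetine cultures that gave the grouping. Actc1 itself was too low in the 14 control and venlafaxine libraries to pass the filter, so its likeness rests on few counts. These libraries share their 2 groups and their culture conditions, and the correlations are descriptions.

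The labelled effect of fluoxetine was set against the 7 day 13 controls with all 7 cultures, with the 4 and with the 3. With all 7 fluoxetine cultures, edgeR called 19 of 16397 genes (0.116%), 10 higher (0.061%) and 9 lower (0.0549%). Cultures 1, 2, 4 and 8 alone gave none of 16727 (833 at an unadjusted p under 0.05). Cultures 5, 6 and 7 alone gave 1032 of 16937 (6.09%), 595 higher (3.51%) and 437 lower (2.58%). The 3 were picked for standing apart and the 4 are what that choice left, so both counts are descriptions. With 4 cultures in place of 7, a count of 0 does not show that the effect rests on the 3. All 19 genes kept their sign with the 4. All 3 comparisons share their controls.

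The count of 19 moved with each library left out. It was 0 without any of fluoxetine cultures 5, 6 or 7, and 317 without fluoxetine culture 4, 163 without culture 2 and 33 without culture 8. Without culture 1 it was 2. Leaving out a control gave 0 for controls 1, 2, 5, 6 and 8, 2 for control 7 and 284 for control 4. DESeq2 called 425 genes with all 7.

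Nkx6-1 was among the 19, at 0.71 ± 0.122 with 7 cultures (adjusted p = 0.0461, edgeR). It stood at 0.51 ± 0.124 with the 4 and at 0.95 ± 0.135 with the 3. Lhx4, another V2 gene, rose by 0.45 ± 0.0836 (0.31 and 0.62). These 2 were the V2 genes called, of 13 tested, against 0.061% called higher among all genes. No gene of the muscle filament or fibroblast lists was called with 7 cultures, nor any Hox gene: Hoxb8 stood at -1.20 ± 0.338 (adjusted p = 0.104) and Hoxb5 at -1.34 ± 0.304 (adjusted p = 0.0604).

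The called genes that differed most between the sets were Kcnh1 (-0.55 with the 4, -0.98 with the 3), a potassium channel gene, Nkx6-1, Tac1 (-1.74 and -2.11), the substance P precursor gene, Zmat4 (-0.35 and -0.68) and Mecom (0.37 and 0.69). Tac1 was at 0.399 to 1.35 CPM in all 7 fluoxetine cultures and at 2.02 to 3.93 CPM in controls, without overlap. Those most alike were Cdc7, a replication kinase gene (-0.18 in both), Abhd4 (0.19 and 0.20), Plekhd1 (-0.56 and -0.59), Vezf1 (0.15 and 0.20) and Sphkap (-0.43 and -0.49).

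**Figure D5:**
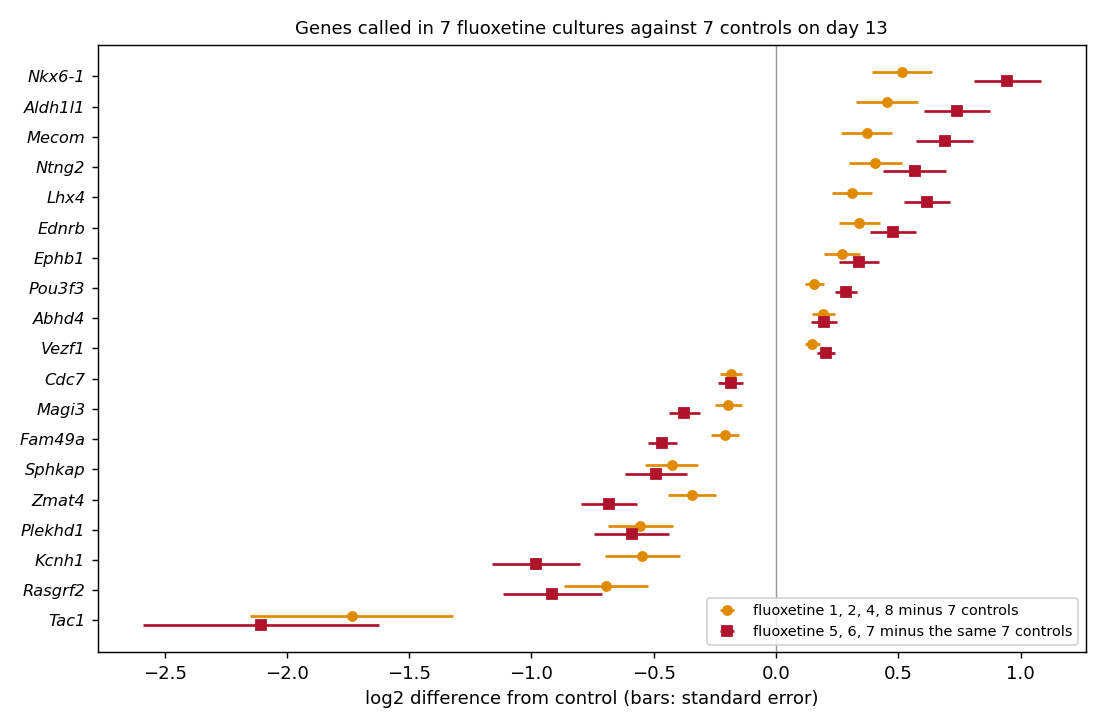
Log2 difference from the 7 day 13 controls (horizontal axis, bars are standard errors) of the 19 genes called with all 7 fluoxetine cultures (rows), for cultures 1, 2, 4 and 8 and for cultures 5, 6 and 7. The 19 were called on both sets together, so that their shared side of 0 comes with that choice. The sets differ more for Nkx6-1 and Kcnh1 than for Abhd4 and Cdc7.

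The spread among the 7 fluoxetine cultures was compared with that in the other groups of day 13. The median SD of log2 CPM over 16964 genes was 0.137 for fluoxetine, 0.152 for controls and 0.155 for venlafaxine. Distances between libraries, as the root mean square difference in log2 CPM, were 0.358 to 0.471 among cultures 5, 6 and 7, 0.33 to 0.399 among the other 4 and 0.357 to 0.545 between the sets. Over all pairs, the median and largest distance were 0.399 and 0.545 for fluoxetine, 0.419 and 0.62 for controls and 0.357 and 0.456 for venlafaxine. Fluoxetine thus had the smallest median SD, while its median and largest distance lay above those in venlafaxine and below those in controls. Mitochondrial transcripts took 1.5% to 1.64% of counts in the 3 and 1.62% to 1.83% in the 4, and their part in the differences was not tested.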

How the data were processed

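RNA counts of 49 libraries (7 groups of 7) were used, of which the 21 of day 13 carry the results. The authors deposited raw counts per gene, 1 column per library. Per the submitters' processing notes reads were demultiplexed with bcl2fastq (version 2.19.0.316), checked with FastQC (0.11.5), aligned by STAR (2.6.0b) and counted by featureCounts (1.6.1) on build GRCm38.p6. PolyA RNA was made into stranded TruSeq libraries, per the labels' protocols. For the counting, neither the annotation release nor the strand setting nor the handling of multimapping reads is stated. The table held 52550 gene rows, of which 52403 matched GENCODE vM21 identifiers for coordinates. Symbols that had become dates were restored in 26 rows.

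Totals over the series ran from 14059811 to 29225775 counts, so that a gene at 0 is limited to about 3 counts per library. Intervals of this kind cover counting error only. CPM were computed here with TMM factors over all 49 libraries, and log2 CPM with a prior count of 2. Differences, standard errors (difference divided by the root of F) and tests came from edgeR 4.0.16 in R 4.3.3 (filterByExpr, robust quasi-likelihood F test, Benjamini-Hochberg adjustment over all genes tested, called under 0.05), tested on simulated data. The 3 against 4 fluoxetine cultures were fitted on these 7 libraries for differences and errors only, with the count filter grouped by the same 3 and 4. Drug against control was fitted on the 21 day 13 libraries. DESeq2 1.42.0 served as an alternative.

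The culture grouping, the gene lists and the markers Actc1, Nkx6-1 and Hoxb8 were chosen with earlier results of these data known, and 6 lists were written after the values were seen. Named genes are the 10 highest and 10 lowest differences without overlap (proper symbol, 2 CPM or more on average in the higher set), up to 5 members per list with the largest difference and those needed to show no difference, the markers, the called genes farthest apart and closest between the sets, and the 5 most like each marker. A few others (Myog counts, Mylpf, Col3a1, Tgfbi, Cdh5, Slc6a4, Fev, Corin) were chosen after their values were seen. Promoter sequences are from RefSeq on GRCm38.p6, and 4 of 4 genes matched. A few genes that the naming rule takes are not reported here.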

Additional observations from a re-analysis of the deposited data

Results flagged for a closer look

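In each day 13 group of 7, the CPM of 21 named genes and the summed CPM of 7 lists were checked for a library far from the others (Dixon's ratio over its 95% critical value). Of 84 groups 14 had one. The critical value assumes normally distributed values, and a rate by chance assumes independent checks. These genes were chosen for large differences and many vary together, so no rate by chance is given.

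Venlafaxine culture 4 was high in muscle genes: Actc1 at 2.1 CPM (next 0.644), Myh3 at 2.36 (next 0.822), Tnnt2 at 0.479 (next 0.143), Tnni1 at 0.479 (next 0.142) and Myog at 0.147 (next 0.0473). All these lie below fluoxetine cultures 5, 6 and 7. The Myog value lies close to 0.111 CPM, the level of 3 counts in venlafaxine culture 4, so it rests on few reads. Control 6 was high in Myh3 at 6.68 CPM (next 1.97) and Myog at 0.746 CPM (next 0.293). The sum of heart and skeletal muscle genes was 180 CPM in venlafaxine culture 8 (next 118).

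Fluoxetine culture 4 was high in Hoxb8 at 28.9 CPM (next 15.2) and Hoxb6 at 21.2 CPM (next 7.72). Venlafaxine culture 5 was high in Nkx6-1 at 119 CPM (next 89.7) and low in Nr5a2 at 2.22 CPM (next 4.44). Control 4 was high in Lncenc1 at 21.9 CPM (next 11.6) and in the sum of pluripotency genes at 429 CPM (next 265).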

How the results depend on the processing

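Of 448 genes apart between the fluoxetine cultures, counts moved by over 1.5 times to 887 with no count filter, 160 at a fold of 2 and 235 under the replicate block, in which each fluoxetine culture was set against the control of the same number. Leaving out 1 culture gave 451 to 987 (highest without culture 6). Deviations of same-numbered cultures from their group means correlated at -0.483 to 0.0269 between control and fluoxetine. They correlated at -0.472 to 0.116 between control and venlafaxine, and at -0.0903 to 0.24 between fluoxetine and venlafaxine. Whether a number marks a shared run was not tested. The 21 named genes kept their direction under all alternatives run (268 values, of which 7 moved by more than the spread between cultures).

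Same-numbered controls gave 0 calls, or 1 with DESeq2, and 0 when leaving out any control. Venlafaxine gave 0, but 7 with no filter and 24 with DESeq2, and 0 when leaving out any culture (without 5 or 7 the lone sample is assumed to vary like the others). Fluoxetine against control gave 19, but 29 with no filter, 30 with a filter of 1 CPM in 3 libraries, 425 with DESeq2, 0 with culture number as a replicate block, and 0 to 317 when leaving out 1 library. With cultures 1, 2, 4 and 8 alone it gave 0 and with 5, 6 and 7 alone 1032. The median SD among fluoxetine cultures was 0.137, 0.103 for genes of at least 5 CPM, and 0.13 to 0.139 when leaving out 1 culture. The causes of these moves were not tested. Depth limits the genes under about 1 CPM, Myog among them.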

Other observations

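Tfap2a, Tlx3 and Lbx1, a few genes of dorsal neural tube that were chosen after their values were seen, were highest in fluoxetine culture 4, as Hoxb8 was. Tfap2a, a factor gene of dorsal progenitors and neural crest, stood at 5.5, 4.56 and 7.35 CPM in cultures 5, 6 and 7. In cultures 1, 2, 4 and 8 it stood at 6.56, 18.5, 30.5 and 15.1 CPM, and in controls at 14.5 to 52.5 CPM. Tlx3, which marks excitatory dorsal neurons, held 0.889, 1.14 and 2.41 against 1.46, 4.58, 7.21 and 2.5 CPM. Lbx1 held 3, 2.96 and 5.64 against 3.11, 6.77, 13.6 and 5.83 CPM. None of them was apart. The wider list of dorsal neural tube and roof plate did not go with them. It had a median log2 difference of 0.0556 and 7 of 13 genes above 0. Of the 13, 1 was apart as higher, against 1.67% of all genes tested. Its sums, 89.7 to 103 CPM in cultures 5, 6 and 7, lay inside those of the other 4 (48.5 to 150 CPM).

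Genes of oligodendrocyte precursors summed to 1550 to 1870 CPM in cultures 5, 6 and 7 and to 1900 to 2250 CPM in the other 4, both within the control range of 1110 to 2200 CPM except for the top of the 4. Gpr17, a receptor gene of cells on the way to oligodendrocytes, stood at 104, 143 and 145 CPM against 202, 184, 181 and 151 CPM. Olig2, the lineage factor gene, stood at 75.7, 112 and 103 against 131, 128, 120 and 105 CPM and overlapped. None of the 13 precursor genes was apart. Of these 13, 3 lay lower without overlap by under 1.5-fold, against 6.89% of all genes tested that were lower without overlap.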
